A study of Mus musculus with 20 samples.

Results

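SR proteins are nuclear RNA-binding proteins with 1 or more RNA recognition motifs and a tail rich in arginine and serine. They bind enhancer sequences in exons and help U1 and U2AF recognise the neighbouring splice sites, and the phosphorylation of their tails by the SRPK and CLK kinases sets where in the nucleus they act. Most of their genes also carry a poison exon, whose inclusion sends the transcript to nonsense-mediated decay and so limits the amount of protein made. Srsf2 (SC35) is needed for blood formation in mice, and its human counterpart is recurrently mutated in myelodysplastic syndromes.

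The 10 SR protein genes described here are Srsf1, Srsf2, Srsf3, Srsf4, Srsf5, Srsf6, Srsf7, Srsf9, Srsf10 and Srsf11, taken by name from the 49671 gene IDs counted. All 10 were found. The family was picked because the RNA counts had already shown Srsf2 to be low in mutant libraries, so the RNA differences of the members are given as a description, with no test. The family's open chromatin and promoter sequence had no part in that choice.

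The study compared Kdm6b-KO and Control hematopoietic stem cells (HSCs), sorted from C57BL/6 bone marrow as lineage-negative, cKit+, Sca1+, CD150+ and CD48- cells. Kdm6b encodes a histone demethylase that removes a repressive methyl mark. Kdm6b-KO mice carried the Vav-driven Cre transgene and Kdm6b fl/fl alleles, and Control mice carried the same transgene with Kdm6b+/+ alleles. Vav-Cre acts throughout the blood system, so cells other than HSCs were recombined too. The 20 samples comprise 6 RNA libraries, 6 ATAC libraries and 8 samples of chromatin immunoprecipitation or input, which were not analysed here. Each of the 3 Kdm6b-KO and 3 Control RNA libraries came from marrow pooled from 3 male and 3 female mice aged 8 weeks, so animals within a pool cannot be told apart. ATAC-seq, in which a transposase cuts and tags accessible DNA, was made from 10000 sorted HSCs per library, from mice aged 8 weeks as well. All 6 ATAC libraries carry a wild-type genotype label, and the groups there follow the titles, 3 titled 6bKO and 3 titled Control.

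Gene counts summed to between 8683106 and 19336121 per Kdm6b-KO library and between 6793873 and 13797890 per Control library, so 3 counts correspond to between 0.155 and 0.442 counts per 1000000 (CPM). Kdm6b itself had 142.5, 202.1 and 191.3 CPM in Kdm6b-KO libraries, against 92.0, 282.5 and 220.6 CPM in Control libraries. These counts cover the whole gene, so they do not check the deletion. The 16 HSC markers summed to 5593 to 5988 CPM in Kdm6b-KO libraries and 5100 to 7648 CPM in Control libraries, and none of the 16 was at 0 in every library. Neutrophil markers, 15 genes, summed to 4495, 201.3 and 198.0 CPM in Kdm6b-KO libraries and 3816, 1233 and 2187 CPM in Control libraries. Erythroid markers, 15 genes, summed to 4524 to 5656 CPM in Kdm6b-KO libraries and 8286 to 11185 CPM in Control libraries, without overlap. Mast cell, basophil and eosinophil markers summed to 197.4, 9.59 and 7.62 CPM in Kdm6b-KO libraries and 86.5, 32.3 and 105.9 CPM in Control libraries, while the sums for monocyte, B cell, T and NK cell and megakaryocyte markers overlapped between the groups. Of the 94 marker genes in these lists, 77 had enough counts to be tested. Of these, 0 passed edgeR's test over the whole table, beside 0.461% of all genes. At an unadjusted p under 0.05, 5 were higher and 7 lower, beside 7.63% and 7.22% of all genes. The part of other cell types in the values below was not tested, and in bulk libraries fewer cells of a type and less RNA per cell cannot be told apart.

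The starts of 3 of the genes are shown: Srsf2 for its RNA difference, Srsf3 as the other member with a TATA box, and Srsf1 as a member with an open start and almost no counts. The sequences are the 250 bases before the annotated start, from RefSeq on GRCm38.p6 (the assembly of mm10), written 5′ to 3′ along the gene's own strand. The whole annotated spans of Srsf2 (to 116853675) and Srsf1 (from 88046499) begin further upstream than the starts used. The bases printed for these genes therefore lie inside their spans. Capitals mark GGGCGG (a GC box), CCAAT (the NF-Y motif), TATAAA (the TBP motif, or TATA box) or CCGGAA (the core of an ETS-factor site), each on either strand.
Srsf2 (chr11:116853095-116853344, minus strand): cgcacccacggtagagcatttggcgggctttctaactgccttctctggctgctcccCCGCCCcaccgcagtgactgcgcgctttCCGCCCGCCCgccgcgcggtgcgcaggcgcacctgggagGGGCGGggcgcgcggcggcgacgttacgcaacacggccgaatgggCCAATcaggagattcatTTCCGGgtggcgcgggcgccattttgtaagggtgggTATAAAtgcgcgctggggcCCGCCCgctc
Srsf3 (chr17:29032410-29032659, plus strand): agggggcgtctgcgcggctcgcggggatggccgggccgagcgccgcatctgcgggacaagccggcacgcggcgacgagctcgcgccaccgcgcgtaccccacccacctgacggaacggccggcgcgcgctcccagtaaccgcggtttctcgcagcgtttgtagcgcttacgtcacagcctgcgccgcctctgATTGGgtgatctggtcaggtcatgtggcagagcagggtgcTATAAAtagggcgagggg
Srsf1 (chr11:88047123-88047372, plus strand): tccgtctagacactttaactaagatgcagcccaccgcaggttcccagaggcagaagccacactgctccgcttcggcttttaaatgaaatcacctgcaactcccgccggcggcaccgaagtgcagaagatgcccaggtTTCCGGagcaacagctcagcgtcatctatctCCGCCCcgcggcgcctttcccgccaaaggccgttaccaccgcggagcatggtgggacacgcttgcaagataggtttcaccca
Srsf2 is the member with the most GC boxes, 5, at positions -194, -166, -162, -127 and -10 from its start, where 2 of the 5 share bases. It also holds CCAAT at -82, CCGGAA at -65 and a TATA box at -29. Srsf3 is the other member with a TATA box, at -18, and has CCAAT at -58 but no GC box in the window. Srsf1, the member with almost no counts, has a GC box at -82, CCGGAA at -113 and a CCAAT that begins at -3 and runs past the start, outside the bases printed.

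Srsf2 was the SR gene with the largest difference between the groups on the log2 scale. The gene lies on the minus strand of chromosome 11, from 116849897 to 116853675, and so shares its chromosome with Kdm6b. Its transcript was counted 8815, 5801 and 16169 times in Kdm6b-KO libraries, against 13217, 40727 and 35614 times in Control libraries. Scaled to depth, this is 770.4, 632.1 and 799.8 CPM in Kdm6b-KO libraries, against 2029.9, 5175.0 and 2602.1 CPM in Control libraries. Every Kdm6b-KO library lay below every Control library, and the groups did not come near each other. The means were 734.1 ± 89.5 CPM in Kdm6b-KO and 3269 ± 1675 CPM in Control HSCs (SD, n = 3 each). The log2 fold change was -2.15, with an SE of 0.33. The Control mean was 4.45 times the Kdm6b-KO mean. The Kdm6b-KO libraries were close to one another, with a coefficient of variation of 12.2%, while that of the Control libraries was 51.2%, since replicate 2 stood above the other Control libraries. Kdm6b-KO replicate 1, whose neutrophil marker sum was far above that of the other Kdm6b-KO libraries, had an Srsf2 level between theirs. Erythroid marker sums were separate in the same direction as Srsf2, 4524 to 5656 CPM in Kdm6b-KO and 8286 to 11185 CPM in Control libraries, and their part in the Srsf2 difference was not tested. Abundant genes weigh most in such a sum. Of the 13 erythroid markers tested, 10 had negative and 3 positive log2 fold changes, and 2 lay wholly below and 1 wholly above Control.

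**Figure D1:**
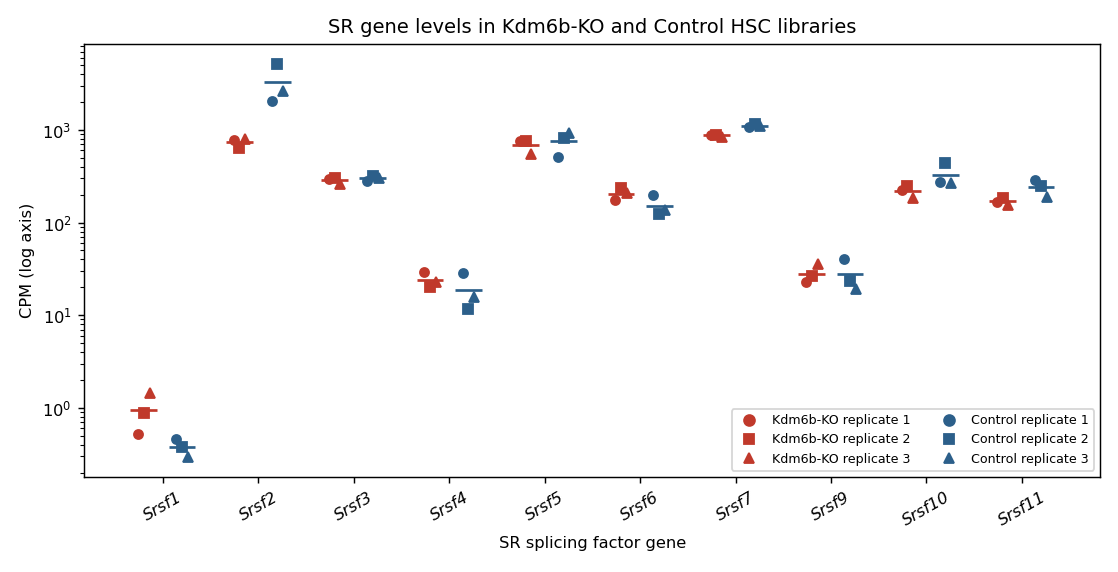
RNA levels of the SR genes in CPM on a log axis, with Kdm6b-KO libraries in red at the left and Control libraries in blue at the right of each gene; points are the 3 libraries of each group and lines their means. The Srsf2 points of Kdm6b-KO, 632.1 to 799.8 CPM, all sit below those of Control, 2029.9 to 5175.0 CPM, and the Srsf1 points sit near 1 CPM or below.

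Of the 9 members with enough counts for the fit, 1, Srsf2, passed an adjusted p of 0.05 in edgeR's quasi-likelihood test over all genes, and it was lower in Kdm6b-KO. Over all 15185 genes tested, 0.217% were called lower and 0.244% higher in Kdm6b-KO (0.461% in all). As the family was picked on this contrast, nothing is read from its count. The call for Srsf2 was lost when Kdm6b-KO replicate 2 or replicate 3 was left out, although the log2 fold change was between -2.40 and -1.66 with any 1 library left out.

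In TMM-scaled CPM the other members that lay wholly below Control were Srsf7, Srsf10 and Srsf11, with far smaller differences than that of Srsf2. With scaling to library totals Srsf7 stayed separate, but the groups overlapped for Srsf10 and Srsf11. Srsf7 (9G8) carries a zinc knuckle and also links messenger RNA to the export receptor Nxf1. It had 884.4, 886.5 and 841.7 CPM in Kdm6b-KO libraries, against 1071, 1143 and 1097 CPM in Control libraries. These were the tightest values in the family, and the means were 870.9 ± 25.2 CPM in Kdm6b-KO and 1104 ± 36.4 CPM in Control (SD, n = 3 each). The log2 fold change was -0.34 (SE 0.21). Srsf10, which turns from an activator into a general splicing repressor when it is dephosphorylated, had 223.4, 249.7 and 184.6 CPM in Kdm6b-KO libraries, against 270.9, 435.2 and 267.9 CPM in Control libraries. Its lowest Control library stood little above its highest Kdm6b-KO library, and the log2 fold change was -0.57 (SE 0.23). Srsf11 (p54), a more distant member of the family, had 166.9, 185.8 and 154.5 CPM in Kdm6b-KO libraries, against 286.7, 247.1 and 189.7 CPM in Control libraries. Here too the groups were separate by a narrow gap, with a log2 fold change of -0.51 (SE 0.20). Among all tested genes, 9.49% lay wholly below Control in this way, and 20.5% were separate in either direction.

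For 5 members the values of both groups overlapped. Srsf3, the smallest SR protein and like Srsf7 an adaptor for messenger RNA export, had 295.2, 302.1 and 258.3 CPM in Kdm6b-KO libraries, against 279.5, 316.3 and 302.4 CPM in Control libraries. The log2 fold change was -0.07 (SE 0.19), and with scaling to library totals it was 0.08. Reads without a unique alignment made up 37.6% to 46.8% of each file and were not counted, and Srsf3 has an annotated processed copy, Srsf3-ps, so its counts are uncertain to that extent. Srsf5 had 759.7, 750.3 and 550.9 CPM in Kdm6b-KO libraries, against 513.3, 818.6 and 935.6 CPM in Control libraries. Its lowest and its highest library were both Control ones. Srsf4 and Srsf6 resemble Srsf5 in having a second, atypical RNA recognition motif. Srsf6 had 173.7, 233.0 and 208.9 CPM in Kdm6b-KO libraries, against 198.6, 123.4 and 135.8 CPM in Control libraries. Kdm6b-KO averaged higher, with a log2 fold change of 0.43 (SE 0.22), but Control replicate 1 lay within the Kdm6b-KO range. Srsf4, the member with the longest arginine and serine tail, had 29.6, 20.1 and 22.6 CPM in Kdm6b-KO libraries, against 28.4, 11.6 and 15.6 CPM in Control libraries. Srsf9, built like a short version of Srsf1, had 22.6, 26.5 and 35.3 CPM in Kdm6b-KO libraries, against 40.9, 23.5 and 19.1 CPM in Control libraries. The log2 fold changes were 0.39 (SE 0.31) for Srsf4, 0.03 (SE 0.29) for Srsf9 and -0.14 (SE 0.25) for Srsf5, none of them far beyond its SE.

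Srsf1 (SF2/ASF), the founding SR protein and a gene that mouse embryos cannot do without, was at the floor of the assay. It had 6, 8 and 29 counts in Kdm6b-KO libraries, against 3, 3 and 4 counts in Control libraries, or 0.524, 0.872 and 1.43 CPM against 0.461, 0.381 and 0.292 CPM. The groups did not overlap, with Kdm6b-KO higher. The 43 Kdm6b-KO counts against 10 Control counts give a ratio of 2.96 per TMM-scaled library size, with an exact 95% binomial interval of 1.46 to 6.6 that covers counting error only. Kdm6b-KO replicate 3 held most of these counts, and without it the ratio was 1.91 (0.787 to 4.8), an alternative chosen after seeing the data. The gene did not reach the count minimum of the fit and was not tested. Its low counts stood beside an open promoter, described further on.

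**Figure D2:**
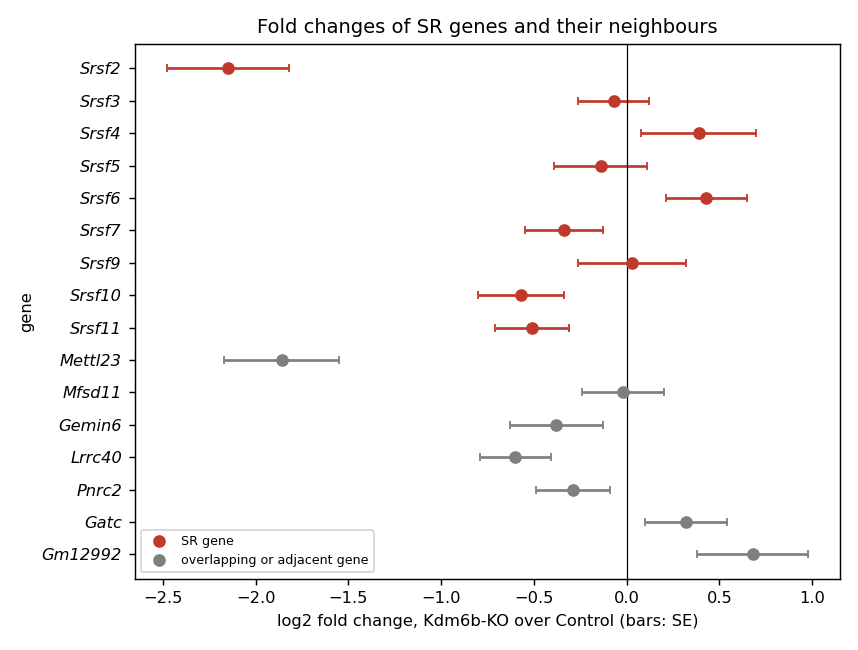
Log2 fold change, Kdm6b-KO over Control, of the 9 SR genes in the fit, in red, and of overlapping or adjacent genes, in grey. Points have bars of 1 SE, and values left of 0 are lower in Kdm6b-KO. Srsf2 lies at -2.15, the other 8 SR genes lie between -0.57 and 0.43, and Mettl23, next to Srsf2, lies at -1.86.

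Srsf2 made up a smaller share of the family's counts in Kdm6b-KO libraries. The family was picked with a low Srsf2 already known, so nothing is read from this share. Of all counts that fell on the 10 genes, Srsf2 made up 23.2% (95% Wilson interval 22.7 to 23.6), 19.2% (18.8 to 19.7) and 26.2% (25.8 to 26.5) in Kdm6b-KO libraries. It made up 43.0% (42.5 to 43.6), 62.4% (62.0 to 62.8) and 46.8% (46.4 to 47.1) in Control libraries. These intervals cover counting error only and are far narrower than the spread between libraries of a group. Counts grow with transcript length and no transcript lengths were used here, so these are shares of counts and not of molecules. The family summed to 3223.8 ± 144.9 CPM in Kdm6b-KO HSCs, against 6193.3 ± 1868.0 CPM in Control HSCs (SD, n = 3 each). Without Srsf2 the sums were 2556, 2655 and 2258 CPM in Kdm6b-KO libraries, against 2690, 3119 and 2964 CPM in Control libraries. The remaining 9 genes together thus stood at 2489.6 ± 206.4 CPM in Kdm6b-KO and 2924.2 ± 217.2 CPM in Control HSCs. This gap was wider than the SD of either group with TMM scaling only. With scaling to library totals the sums without Srsf2 overlapped between the groups, so no joint difference is read from them. Over the 9 members in the fit the median log2 fold change was -0.14, beside 0.00 over all genes tested, of which 50.1% had a negative value. With scaling to library totals the medians were 0.01 over the 9 members and 0.15 over all genes.

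Over the 6 libraries, the profile most like that of Srsf2 belonged to the gene next to it. Likeness was measured as the root mean square difference of log2 CPM, each gene centred on its own mean, among 11506 genes with a mean of at least 5 CPM. Mettl23, a methyltransferase-like gene, differed from Srsf2 by only 0.14, followed by Gm43581 at 0.24, Gm37320 at 0.28, Ifit1bl1 at 0.33 and Gm43305 at 0.34. All 5 were lower in Kdm6b-KO in every pair of libraries, as likeness to Srsf2 requires. Among the SR genes the nearest was Srsf10 at 0.81, which ranked 546 of the genes compared. Srsf11 followed at 0.92 and Srsf7 at 0.94, while Srsf6 at 1.39 and Srsf4 at 1.47 were the least like Srsf2. By this measure no other SR gene came as near to Srsf2 as its neighbour did. The measure is not scaled for the size of a gene's difference. A smaller fold change alone therefore places a gene further from Srsf2, and a different pattern over the libraries cannot be read from it.

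Mettl23 and Srsf2 face each other tail to tail, with annotated ends 156 bp apart. Mettl23 had 330.3, 271.7 and 367.9 CPM in Kdm6b-KO libraries, against 740.6, 1852 and 940.8 CPM in Control libraries. The highest Control library of Mettl23 was replicate 2, the one that was also highest for Srsf2. The means of 323.3 ± 48.5 CPM in Kdm6b-KO and 1178 ± 592 CPM in Control (SD, n = 3 each) differed by -1.86 on the log2 scale (SE 0.31), lower in 3 of 3 Kdm6b-KO libraries, with an adjusted p of 0.0192 in edgeR's quasi-likelihood test. The adjusted p was 0.0512, 0.155 and 0.138 without Kdm6b-KO replicate 1, 2 and 3. For each count of Srsf2 there were 0.429, 0.430 and 0.460 counts of Mettl23 in Kdm6b-KO libraries, against 0.365, 0.358 and 0.362 in Control libraries. The ratio was thus nearly fixed within Control and somewhat higher in Kdm6b-KO. Whether reads cross from one gene into the other was not tested, and the strand setting of the counting is not given in the sources used here.

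On its other side the whole annotated span of Srsf2 overlaps that of Mfsd11, a transporter-like gene on the opposite strand, by 1465 bp. The starts used for the promoter windows lie 668 bp apart inside the Mfsd11 span, and transcripts from these starts point away from each other without overlap. Mfsd11 had 31.9, 29.5 and 28.9 CPM in Kdm6b-KO libraries, against 30.4, 27.3 and 33.8 CPM in Control libraries. This neighbour showed no difference beyond its error, at -0.02 on the log2 scale (SE 0.22, adjusted p = 0.978, edgeR), although 1 open region covers the starts of both genes. Lrrc40, whose start lies 76 bp from that of Srsf11 and points away from it, had 97.6, 87.1 and 91.5 CPM in Kdm6b-KO libraries, against 113.8, 160.0 and 144.4 CPM in Control libraries. Like Srsf11 in TMM-scaled CPM, it lay wholly below Control, by -0.60 on the log2 scale (SE 0.19). It was not called (adjusted p = 0.172, edgeR), but was without Control replicate 1 (adjusted p = 0.0382, edgeR). Gemin6, which encodes a part of the SMN complex and is annotated 134 bp from Srsf7, had a log2 fold change of -0.38 (adjusted p = 0.511, edgeR). Gatc overlaps Srsf9 by 602 bp and the long noncoding RNA Gm12992 overlaps Srsf4 by 2248 bp, so counts of these pairs may be mixed. Their log2 fold changes were 0.32 (adjusted p = 0.518) and 0.68 (adjusted p = 0.312, edgeR). Pnrc2, a decapping cofactor next to Srsf10, stood at -0.29 (adjusted p = 0.517, edgeR).

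The other proteins of splicing were taken as whole lists, 128 genes of which 126 were tested. Of these 126 genes, 1 was called lower and 0 higher, beside 0.217% and 0.244% of all genes, and at an unadjusted p under 0.05 there were 13 lower and 8 higher, beside 7.22% and 7.63% of all genes. DESeq2 called 3 of them, Hnrnpr and Kpna2 lower and Prpf19 higher, beside 3.08% of all genes, and limma-voom called 1, Kpna2, beside 0.277%. The median log2 fold change was -0.04, with 56 positive and 70 negative values. The called gene was Kpna2, an importin alpha that carries many cargoes into the nucleus and lies on chromosome 11. Kpna2 had 5.51, 3.38 and 6.63 CPM in Kdm6b-KO libraries, against 26.3, 23.1 and 21.7 CPM in Control libraries. It was lower in 3 of 3 Kdm6b-KO libraries, by -2.17 on the log2 scale (SE 0.30), and edgeR's adjusted p was 0.00281. It was the only called gene in a list of 14 SR kinase and nuclear import genes, of which 12 were tested (median -0.12, with 4 positive and 8 negative values and a highest value of 0.47). The low level of Kpna2 was known from earlier results when the lists were chosen, so nothing is read from its call about splicing genes. Among the dedicated SR kinase and import factor genes, Srpk1 had a log2 fold change of -0.45 (adjusted p = 0.408), Clk1 -0.49 (0.484), Clk4 -0.23 (0.625) and Tnpo3 -0.08 (0.903, edgeR). All 4 were named after their values were seen, and the list's other kinases are not given. As 4 of the 12 genes tested in this list had positive values, these 4 do not stand for it.

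The SR-related proteins, which carry arginine and serine repeats but are not classed as SR proteins, leaned to lower values. Of 24 tested, 0 were called (edgeR), 7 were lower and 0 higher at an unadjusted p under 0.05, and the median log2 fold change was -0.28, with 17 negative values. The groups did not overlap for 11 of the 24, 9 of them lower, beside 20.5% of all genes and 9.49% lower. The 7 were Rsrc1, Rsrp1, Srek1, Srrm2, Thrap3, Tra2b and U2surp, named because they passed the unadjusted threshold. Tra2b, which activates exons together with SR proteins, averaged 217.4 CPM in Kdm6b-KO and 351.6 CPM in Control (-0.69, SE 0.25, adjusted p = 0.220). Thrap3 averaged 143.2 CPM in Kdm6b-KO and 221.9 CPM in Control (-0.63, adjusted p = 0.160), and Srrm2, a scaffold of nuclear speckles, 260.0 CPM in Kdm6b-KO and 371.1 CPM in Control (-0.51, adjusted p = 0.291, edgeR). Bclaf1 and Son, the list's most abundant genes, stood at -0.42 (adjusted p = 0.379) and -0.23 (0.686). Srsf12, the SR gene not among the 10, averaged 5.26 ± 0.452 CPM in Kdm6b-KO and 3.98 ± 1.58 CPM in Control HSCs (log2 fold change 0.38, adjusted p = 0.702, edgeR).

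The core machinery and the opposing factors had medians near 0, while single genes spread widely to both sides. Log2 fold changes ran from -1.47 to 0.68 among hnRNP proteins and related repressors and from -0.41 to 1.58 in splice site recognition. They ran from -0.52 to 1.4 in the catalytic spliceosome list and from -0.72 to 0.83 in the nonsense-mediated decay list. Of 28 hnRNP proteins and related repressors of splicing, 0 were called (edgeR), 1 was higher and 4 lower at an unadjusted p under 0.05, and the median was -0.09. Hnrnpa2b1 averaged 1647 CPM in Kdm6b-KO and 1543 CPM in Control (log2 fold change 0.09, adjusted p = 0.885), and Hnrnpk 958.6 CPM in Kdm6b-KO and 1045 CPM in Control (-0.12, 0.822). Among 24 genes of splice site recognition, 0 were called, 3 were higher and 0 lower at an unadjusted p under 0.05, with a median of 0.01. Sf3b1, the branch point factor that is also mutated in human myelodysplasia, averaged 441.9 CPM in Kdm6b-KO and 474.0 CPM in Control (-0.10, 0.848, edgeR), and Sf3b2 stood at -0.04 (0.95). Among 22 genes of the tri-snRNP and the catalytic spliceosome, 0 were called, 2 were higher and 0 lower at an unadjusted p under 0.05, with a median of 0.07. There, Eftud2 stood at -0.22 (0.668) and Dhx15 at -0.11 (0.828). Of 15 genes of nonsense-mediated decay and the exon junction complex, the route that poison exons feed, 0 were called, 2 were higher and 1 lower at an unadjusted p under 0.05, and the median was -0.05. Eif4a3, a core part of the exon junction complex, averaged 137.6 CPM in Kdm6b-KO and 122.4 CPM in Control (0.17, adjusted p = 0.719, edgeR). Gene counts do not show exon inclusion, so poison exons were not measured.

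**Figure D3:**
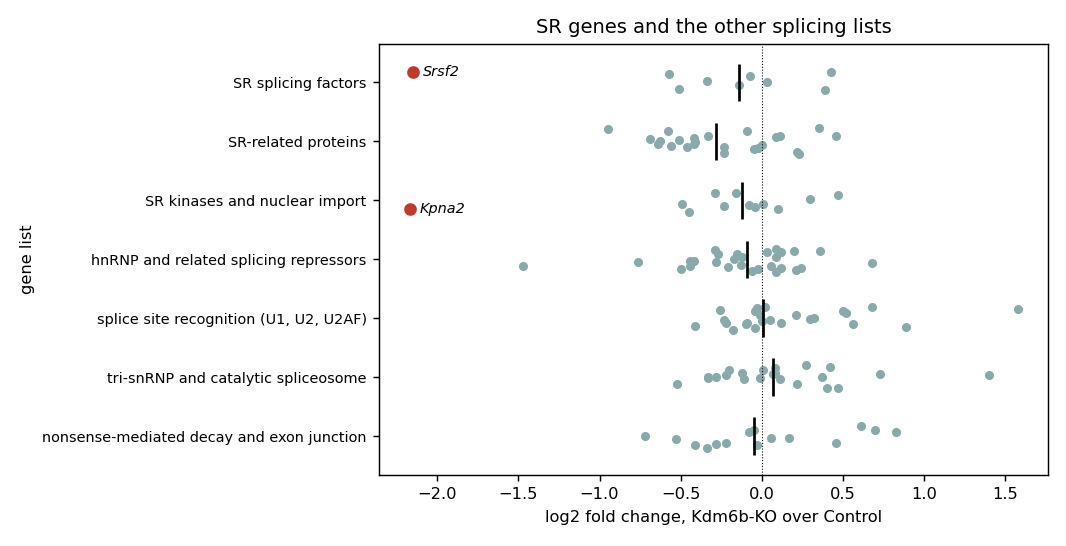
Log2 fold change, Kdm6b-KO over Control, of every tested gene in the SR family and in each splicing list, 1 point per gene, with black bars at the list medians and called genes in red. Srsf12, at 0.38, is not drawn. The called genes are Srsf2 and Kpna2, and the medians of the other lists drawn run from -0.28 for SR-related proteins to 0.07 for the catalytic spliceosome.

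Open chromatin gave a reading on these genes that was not used to pick them. The 6 libraries held 53692 to 69729 peaks in the 6bKO-titled group and 44739 to 62125 peaks in Control, called by the authors per library, and the number of peaks moves with read depth, which is unknown here. Merging peaks of any list that shared 1 bp or more gave 149774 regions. A promoter window was taken from 250 bases before to 50 after each RefSeq start. Of the 10 members, 8 had a peak in this window in all 6 lists, and Srsf1 and Srsf9 had one in 5, beside 58.9% of 10476 tested genes with a peak in all 6 lists and 15.6% with none in any. The missing lists were 6bKO-titled replicate 1 for Srsf9 and Control replicate 1 for Srsf1. The Control replicate 1 list did hold an Srsf1 peak further inside the gene, with its summit 336 bp from the start, in the same merged region.

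The start of Srsf2 was open in every library, also in those titled 6bKO. The peak spanned 869, 966 and 993 bp in 6bKO-titled libraries and 848, 924 and 977 bp in Control libraries. All lay within 1 region, chr11:116852884-116853880, which also holds the start of Mfsd11, 668 bp away on the other strand. The authors' fold enrichment over background was 11.3, 10.4 and 13.4 in 6bKO-titled libraries and 9.98, 10.8 and 14.2 in Control libraries, and these ranges overlapped. Ranked by the authors' −log10 q within its own list, the peak was in the top 9.21%, 11.9% and 5.50% in 6bKO-titled libraries and the top 6.13%, 6.44% and 2.59% in Control libraries. Lists of different lengths do not allow a change to be read from these ranks. The summit lay at -280, -314 and -245 bp from the start in 6bKO-titled libraries and at -317, -240 and -317 bp in Control libraries, near the 5′ end of the sequence printed above. With 3 libraries against 3, no two-sided exact test can give a p below 0.1, and none was made.

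The other promoters differed in where the peak stood. Srsf11 had its summits between -19 and 10 bp from the start in all 6 libraries and fold enrichments of 15.9, 15.8 and 17.4 in 6bKO-titled libraries and 11.4, 10.3 and 15.0 in Control libraries. The region there also holds the start of Lrrc40. Every 6bKO-titled value of Srsf11 was above every Control value, but the enrichment depends on each library's own background and the difference was not tested. The share of all promoters that separate in this way was not computed, so nothing is read from this separation. Srsf10 likewise had its summits between -6 and 31 bp from the start. Srsf5 had 1 wide peak of 1014 to 1280 bp in 6bKO-titled libraries and of 1293 bp in Control replicate 3, with summits 590, 738 and 667 bp inside the gene in 6bKO-titled libraries and 703 bp inside it in Control replicate 3. The lists of Control replicates 1 and 2 split the same stretch into 2 peaks, of 329 and 346 bp with summits at -8 and -10 bp, and of 492 and 425 bp with summits 662 and 709 bp inside the gene. A summit inside the gene was thus found in all 6 libraries. The lists that held the split peak were the shortest, with 47450 and 44739 peaks. The starts of Srsf1 and Srsf4 also lay in regions where some lists held more than 1 peak. Over all members and libraries the width of the peak over the promoter window ran from 202 to 1309 bp, with a median of 808 bp.

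**Figure D4:**
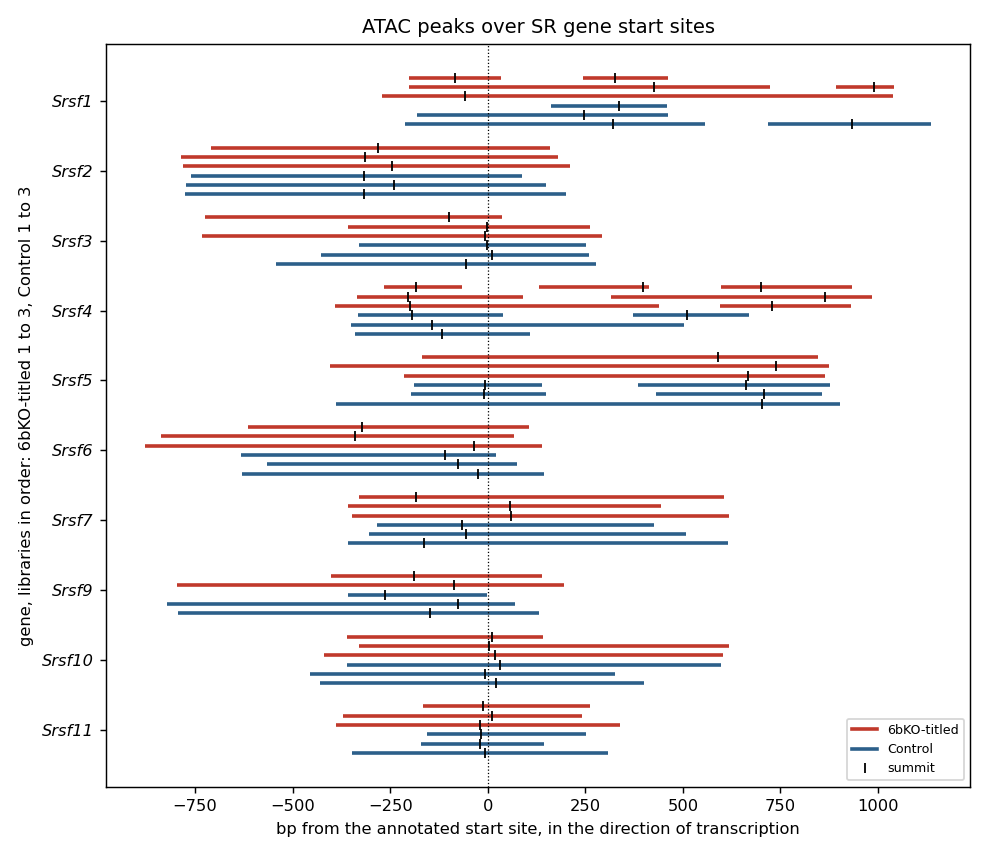
Extent of the ATAC peaks in the open region over the start of each SR gene, as distance from the RefSeq start in bp (negative is upstream), with 1 row per library, 6bKO-titled in red above Control in blue, 1 bar per peak and a mark at each summit. Srsf9 has no bar in 6bKO-titled replicate 1, and every Srsf5 row has a summit 590 to 738 bp inside the gene, with a separate peak at the start in Control replicates 1 and 2.

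Srsf1 thus had a peak over its promoter window in 5 of 6 libraries with next to no counts. Its peak spanned 236, 926 and 1309 bp in 6bKO-titled libraries and 644 and 769 bp in Control replicates 2 and 3, with a fold enrichment of 8.91, 6.99 and 9.28 in 6bKO-titled libraries and of 9.18 and 9.77 in those Control libraries. Of 6183 protein-coding genes with a promoter peak in all 6 lists, 283 (4.58%) did not reach the count minimum for RNA, and the median over these 6183 genes was 2714 counts summed over the 6 RNA libraries. Vezf1, the next gene beyond Srsf1 and named after its values were seen, showed the same pairing: it had a promoter peak in all 6 lists and 2, 2 and 2 counts in Kdm6b-KO libraries, against 0, 3 and 1 in Control libraries. Cuedc1, the nearest gene in the fit on that side, at a distance of 45388 bp, had 13, 9 and 28 counts in Kdm6b-KO libraries, against 1, 1 and 2 in Control libraries (log2 fold change 2.96, SE 0.83, adjusted p = 0.128, edgeR). Cuedc1 reached the count minimum only through its Kdm6b-KO libraries, and it left the fit without Kdm6b-KO replicate 1 or replicate 3. Nothing is therefore read from its fold change. What lies behind the low counts of this stretch was not tested.

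Within 50 kb of the 10 genes lay 139 open regions. Of these, 27 (19.42%) were present in all 6 lists and 60 (43.17%) in 1 list, beside 19466 (in all 6) of the 149774 regions and 59.91% (in 1). By library, 62, 58 and 84 of the regions were present in 6bKO-titled libraries and 59, 56 and 81 in Control libraries, and the counts of both groups overlapped. In each group the library with the most peaks in all also had the most of these regions. Present in all 3 libraries of 1 group and none of the other were 3 regions, 2 of them in 6bKO-titled libraries and 1 in Control libraries, beside 1.30% and 0.288% of all regions (1.59% in all). The 6bKO-titled ones were chr11:116808136-116808491 near Srsf2 and chr17:29072725-29073314 near Srsf3, and the Control one was chr11:88091984-88092255 near Srsf1. All 3 lie outside the SR genes themselves and more than 10 kb from them. With peaks of a −log10 q of at least 5 alone, 1 of 109 regions (0.917%) was held by 1 group, in Control, beside 2.00% of all regions.

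In sequence, most of the promoters were rich in CpG. The 300 bases of the promoter window held 20 to 49 CpG dinucleotides, with a median of 35 beside 20 over the 10476 tested genes, and 56.0% to 77.7% G and C, with a median of 68.7% beside 60.7%. GGGCGG on either strand was found in 9 of the 10, beside 62.6% of tested genes' promoters, and CCGGAA in 6 of 10, beside 28.3%. CCAAT was in 4, Srsf1, Srsf2, Srsf3 and Srsf10, beside 38.6%, and TATAAA in 2, Srsf2 and Srsf3, beside 7.05%. The NRF1 motif was in 0 of the 10 windows, beside 2.05% of tested genes' promoters. The E box CACGTG was in 0 of 10 as well, beside 10.2%, the cyclic AMP element TGACGTCA in 0, beside 3.18%, and the AP-1 site TGANTCA in 0, beside 4.95%. Srsf4 had the most CpG, 49. Srsf5 had the fewest, 20, and Srsf1 had 22, and their G and C contents of 56.0% in Srsf5 and 58.3% in Srsf1 lay below the median of tested genes. Among the 4 members that lay wholly below Control in TMM-scaled RNA levels, the windows had nothing of these motifs in common but the GC box, which was in 5 of the other 6 as well. A match describes the letters of the window and not binding by a factor.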

How the data were processed

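Each RNA library has a deposited table of the authors' raw read counts per Ensembl gene. Tools named for RNA-seq on mm10, per the submitters' processing notes and with no roles given, were featureCounts 1.4.5 of Subread, STAR 2.0.4, Partek 6.6 and HTSeq 0.8.0. Reads assigned to genes made up 16.46% to 19.73% of each file, and the lines for unassigned reads were left out. Counts were tested with edgeR 4.0.16 (filterByExpr, TMM, robust quasi-likelihood fit on genotype, two-sided, Benjamini-Hochberg over 15185 genes, threshold 0.05). A positive log2 fold change means higher in Kdm6b-KO, and CPM use TMM-scaled library sizes. The code was tested on simulated data.

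Each ATAC library has a deposited peak list, and MACS2, BWA 0.7.16a and cutadapt 1.16 are named for it, per the submitters' processing notes. The authors give each peak a fold enrichment (a ratio), −log10 p and q values and a display score, which serve here only to describe, rank or filter peaks within a list.

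Members and lists were chosen with earlier results of these data known. Named genes were the members, from each list the called genes (up to 2 per direction) or else its 2 of highest mean CPM, the members' overlapping and nearest tested genes within 50 kb, and the 5 profiles most like Srsf2. Any other gene named was chosen after its values were seen. One gene that this rule draws is not reported here. Replicates are labelled as biological and none was a duplicate, with a chi-square per degree of freedom of 14.75 to 44.55 between replicates. A symbol was found for 49326 of 49671 IDs. Intervals cover counting error only, as reads carry no molecular identifiers. Promoter sequence came from RefSeq. Protein features and levels per transcript length, which were planned, are not analysed here. Alternatives were RLE factors, library totals, no filter, a 1 CPM filter, DESeq2 1.42.0, voom in limma 3.58.1, a replicate block, each library left out, and chromosome 11 left out. For peaks they were a −log10 q of at least 5, windows around summits, other distances and each library left out.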

Additional observations from a re-analysis of the deposited data

How the results depend on the processing

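Over 14 alternatives, 123 of 125 log2 fold changes of the SR genes stayed within 1 SD of their reported values, where the SD is that of the gene's log2 CPM between replicates; the exceptions were Srsf3 (0.08) and Srsf7 (-0.19) under library totals, a scaling that moved the median of all genes by 0.15. Srsf2 was the called member in 11 of the 14, and no member was called without Kdm6b-KO replicate 2, without Kdm6b-KO replicate 3 or with chromosome 11 left out, which removes Srsf2. The genes called over the whole table, 70, became 576 (249 higher, 327 lower) with no filter, 467 (189 higher, 278 lower) with DESeq2, 42 with limma-voom, 19 with chromosome 11 left out and 20 to 519 with 1 library left out. Under library totals 100 were called, 70 higher and 30 lower, against 37 and 33. The splicing genes called, 1, became 4 with no filter, 3 with DESeq2, 0 with chromosome 11 left out, which removes Kpna2, and 1 to 6 with 1 library left out. Same-numbered libraries of the 2 groups deviated together with correlations of 0.0324, 0.161 and -0.127, beside -0.199 to 0.126 for the other pairs. With 3 libraries per group these values cannot exclude that same-numbered libraries were processed together, and the main fit did not pair them. With a replicate block 88 genes (35 higher, 53 lower) and 2 splicing genes, Hnrnpr and Kpna2, were called. The 3 regions held by 1 group became 1 at a −log10 q of at least 5, 0 within 10 kb, 6 within 100 kb and 4 to 7 with 1 library left out; the share over all regions was 2.00% at the stricter q, 1.59% for the distances and 2.40% to 4.62% with 1 library left out. Small values changed sign, none of them called: under library totals Hnrnpk 0.02, Sf3b1 0.05, Sf3b2 0.11, Dhx15 0.04, Mfsd11 0.12, Kdm6b 0.01, Srsf3 0.08 and Srsf5 0.01, with no filter Mfsd11 0.01, and with 1 library left out Sf3b2 (-0.16 to 0.06), Mfsd11 (-0.09 to 0.06), Kdm6b (-0.49 to 0.19), Srsf5 (-0.35 to 0.04), Srsf9 (-0.18 to 0.41) and Hnrnpa2b1 (-0.01 to 0.19). Where not stated, the cause was not tested. At 3 to 29 counts Srsf1 is imprecise, and ATAC depth is unknown, so a missing peak is not shown to be closed chromatin.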
